A study of Mus musculus with 4 samples.

Results

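The nuclear genes of oxidative phosphorylation were followed in mouse leukaemia cells with and without a conditional knockout of Ybx1, the gene of an RNA- and DNA-binding Y-box protein. Members were chosen by symbol: names starting with Nduf, Uqcr or Atp5, Cox followed by a digit, and Sdha, Sdhb, Sdhc, Sdhd, Sdhaf1, Sdhaf2 and Cyc1, leaving out symbols that contain -ps. The rule found 105 of the 28141 genes in the table. They comprised 44 genes of complex I, 6 of complex II, 9 of complex III, 25 of complex IV, 17 of complex V and 4 processed pseudogenes (Cox6c2, Ndufa11b, Ndufb4c and Ndufs6b). Polyadenylated RNA had been sequenced from leukaemia cells taken from C57BL/6 bone marrow and labelled LSCs, in 2 WT libraries and 2 YBX1cKO libraries. The driver of the knockout, the deleted part of Ybx1, the way the leukaemia was induced, the age of the mice and any sorting of the cells are stated in no source used here. The sources do not say whether replicates are separate animals; p-values therefore reflect the spread between these libraries alone, which may be technical.

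Oxidative phosphorylation is carried out in the inner mitochondrial membrane. Complexes I and II pass electrons from NADH and succinate to coenzyme Q, complex III passes them on to cytochrome c, and complex IV hands them to oxygen. Complexes I, III and IV pump protons, and complex V, the ATP synthase, uses the returning protons to make ATP. Most subunits are encoded in the nucleus and imported, a few core subunits are encoded by mitochondrial DNA, and assembly factors help to build the complexes without staying in them. The dependence of leukaemic stem cells on this pathway has been studied as a point of attack in myeloid leukaemia.

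The deposited values were logarithmic scores of unstated base. They were multiplied by 0.693 to give log2 levels, a factor that was deduced from replicate noise and is stated nowhere; read as plain log2, every log2 fold change would be 1.44 times as large, with the same p-values. A gene was tested if its score was at least 1 in at least 2 libraries, and called at an adjusted p under 0.05 in limma, fitted over all tested genes. Ybx1 itself stood at log2 levels of 9.31 and 9.41 in WT and 8.19 and 8.13 in YBX1cKO, and fell 2.29-fold (SE of the log2 fold change 0.08, limma adjusted p = 1.1e-11). The groups did not overlap. Depth was unknown, since the table held no counts; the back-transformed levels summed to 11074317 and 11157952 in WT and 12104617 and 12134026 in YBX1cKO. Summed markers of dividing cells came to 1043 and 1073 per 1000000 of the library sum in WT and 412 and 419 in YBX1cKO, and all 10 fell, Top2a by 1.48 and Ccnb1 by 1.30 on the log2 scale. Monocyte and macrophage markers came to 6655 and 6767 per 1000000 in WT and 10585 and 10620 in YBX1cKO. Of 7 tested 5 rose, those with the smallest p being Lyz2 and Cd68, and 1 fell. Abundant markers weigh most in this sum. Adgre1, the most abundant in WT, rose by 0.09 on the log2 scale and was at -0.20 with quantile normalization. Lyz2, the next in level, rose by 2.25, Csf1r was not called and Ms4a6c fell by 1.57. Neutrophil markers came to 500.4 and 534.9 in WT and 1307 and 1322 in YBX1cKO; of 7 tested 6 rose, those with the smallest p being Mmp8 and Mmp9, and 1 fell, while S100a8, S100a9, Ngp, Ltf, Camp and Retnlg had no row. Stem and progenitor markers came to 488.6 and 505.1 in WT and 309.8 and 319.0 in YBX1cKO; 3 of 5 tested fell, among them Mecom by 0.60 and Gata2 by 0.43, and Kit, Cd34, Flt3 and Meis1 had no row, so the labelled cell type could not be checked against them. The part of these shifts in the results on respiratory genes was not tested, and in bulk RNA fewer cells of a type and less RNA per cell cannot be told apart.

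Most respiratory chain genes differed little between the genotypes, and those that differed went both ways. Of the 100 members tested, 32 rose in YBX1cKO, 18 fell and 50 were not called. Over all 15527 tested genes 37.4% were called, 19.5% higher and 17.8% lower. The members are mostly abundant transcripts, for which small differences pass the test. Among all genes with a mean log2 level of at least 9, 70.9% were called, 42.2% higher and 28.8% lower, while of the 79 members at that level 30 rose and 13 fell, or 54.4%. Sizes were small: the median log2 fold change of the members was 0.02, and the median of its absolute value was 0.14, against 0.32 over all tested genes and 0.25 over those at a level of 9 or more. Only Cox6a2 and Sdhaf1, both lower in YBX1cKO, were called at 1.5-fold or more, which is 2.0% of the members against a background of 14.2% of all tested genes. The 2 groups did not overlap for 70 members, where 65.1% of all tested genes and 86.4% of those at a level of 9 or more did not overlap. Lack of overlap was a condition for the 12 largest rises and falls named below. It therefore adds no support for them.

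The balance of rises and falls depended on how the libraries were scaled. With quantile normalization 24 members rose and 25 fell, beside 36.1% of all tested genes called (18.4% higher, 17.7% lower). With each library shifted to a common median 40 rose and 9 fell, beside 38.5% (23.4% higher, 15.2% lower). With either WT replicate left out, which leaves 1 WT library, fewer members were called, and fewer of all tested genes as well. In every alternative other than a prior variance held constant over levels, 26 called members, 20 higher and 6 lower, kept their call and direction. With the constant prior variance 6 members were called: Cox17, Cox7a2l and Ndufa13 rose, and Sdhaf1, Ndufaf4 and Cox6a2 fell. In that setting 14.6% of all tested genes were called, 7.58% higher and 7.02% lower.

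**Figure D1:**
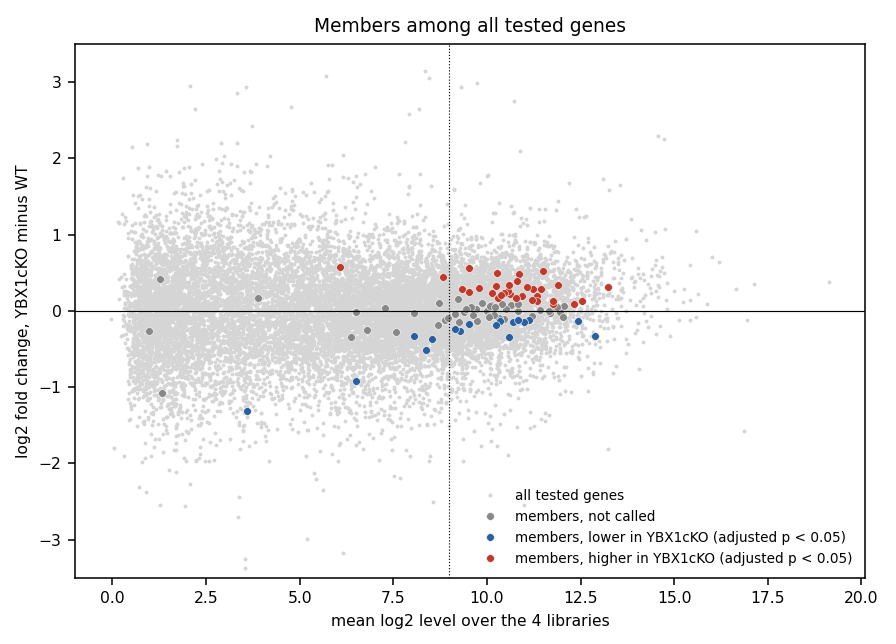
Log2 fold change (YBX1cKO minus WT) against the mean log2 level over the 4 libraries, for all tested genes in grey and for the tested members in colour by call; the dotted line marks a level of 9. The members lie mostly to the right of the line and close to 0, with a median log2 fold change of 0.02.

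**Figure D2:**
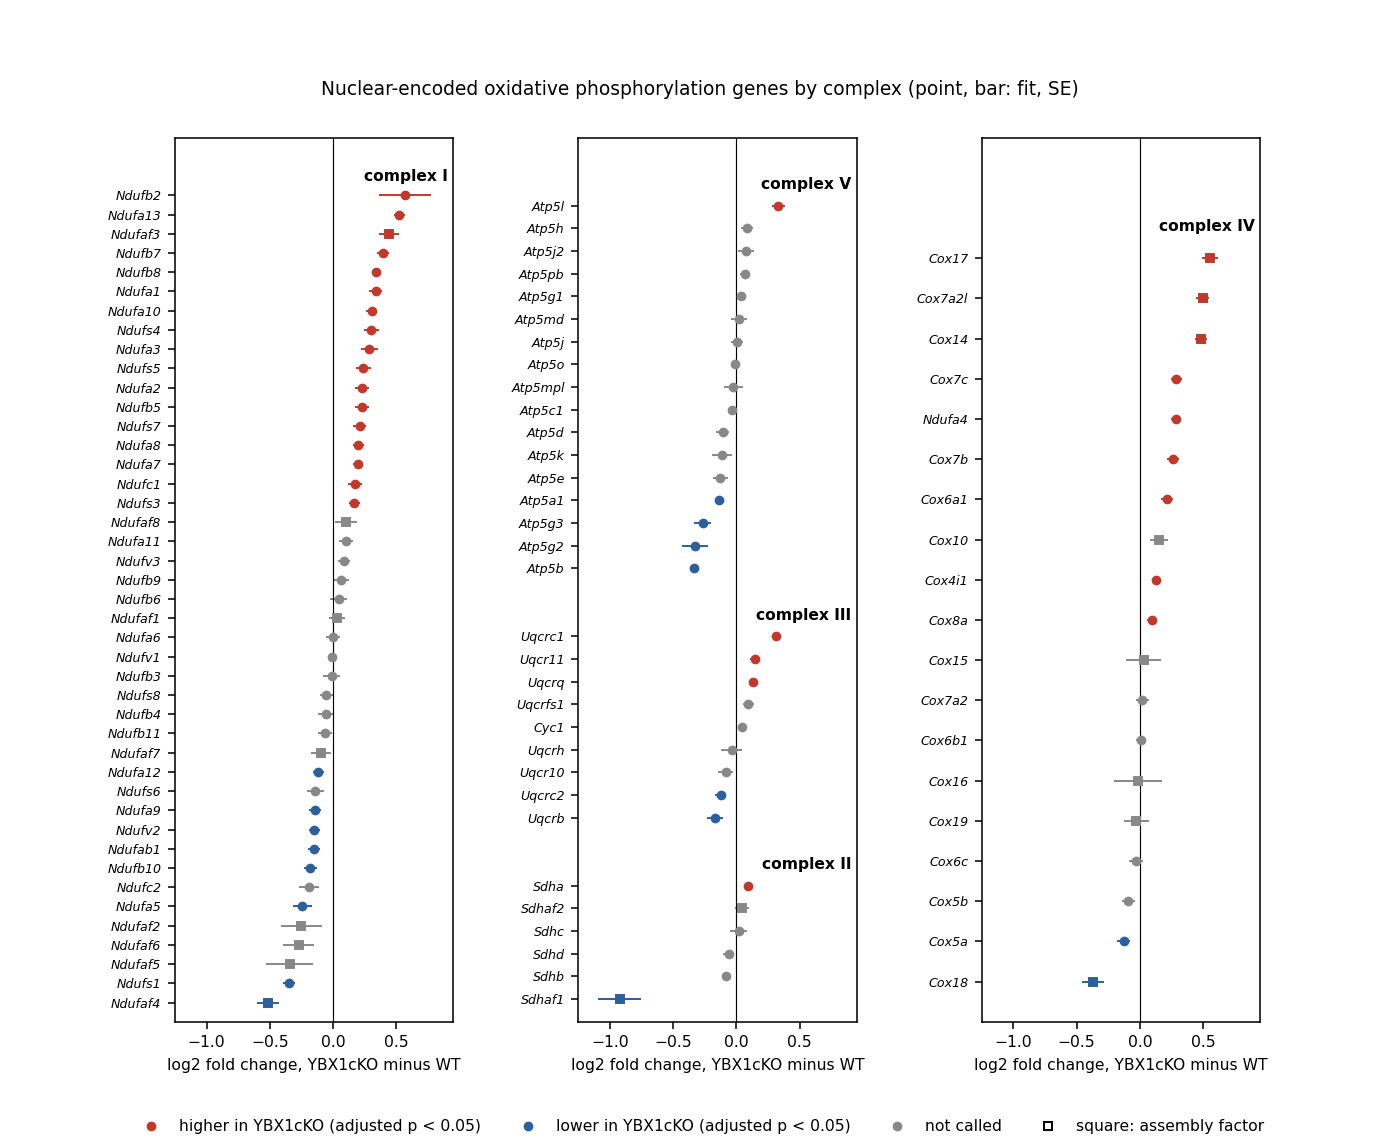
Log2 fold change of each tested member by complex, with the SE of the fit as bars, colour for the call and squares for assembly factors; Cox6a2, Cox4i2, Cox20, Cox7a1 and the pseudogene Ndufb4c are left out for their wide errors, and 1 further member is not shown. Rises and falls stand side by side in complexes I, III and IV, while complex V has 1 rise and 4 falls.

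Complex I, the NADH dehydrogenase, held the most rises, but it also had the most tested genes. Of its 44 tested genes 18 rose and 8 fell (median log2 fold change 0.05). Quantile normalization gave 15 and 9, and the median shift 20 and 2. The share of its genes that rose, 40.9%, was close to the 39.1% of complex IV. Among all genes at a level of 9 or more, which not every gene of complex I reached, 42.2% rose and 28.8% fell. In complex I 18.2% fell. Among the 29 accessory subunits, which surround the catalytic core, 14 rose and 5 fell (median 0.10; 13 and 5 with quantile normalization, 16 and 0 with the median shift). Among the nuclear core subunits, which bind NADH, flavin, iron-sulphur clusters and coenzyme Q, Ndufs3 rose by 0.17 and Ndufs7 by 0.21 on the log2 scale (limma adjusted p = 0.0037 and 0.0012). With quantile normalization Ndufs3 was at 0.10 and not called (adjusted p = 0.079). Ndufs1 and Ndufv2 fell, and Ndufv1 and Ndufs8 were not called, though quantile normalization called Ndufv1 lower (-0.10, limma adjusted p = 0.020).

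The largest rise of an abundant complex I gene was that of Ndufa13. It encodes an accessory subunit also known as GRIM-19 and lies on chromosome 8 from 69894180 to 69902558 in GRCm38. Its log2 level was 11.31 and 11.17 in WT and 11.76 and 11.77 in YBX1cKO, a rise of 0.53 (SE 0.04, limma adjusted p = 2.3e-10). Ndufb7, a small subunit of the membrane arm, stood at 10.56 and 10.63 in WT and 10.93 and 11.05 in YBX1cKO (limma log2 fold change 0.39, SE 0.05, adjusted p = 3.2e-07). Both YBX1cKO libraries lay above both WT libraries for each of these genes. Ndufb8, whose protein is widely used on blots as a marker of assembled complex I, stood at 11.72 and 11.73 in WT and 12.10 and 12.03 in YBX1cKO, again without overlap (limma log2 fold change 0.34, SE 0.03, adjusted p = 1.6e-08; 0.22 with quantile normalization). Levels per kilobase of exon were divided by all annotated exon bases of a gene, which can far exceed the length of a single transcript. Ranks per kilobase hold for that length only, and ranks by transcript length were not computed. Ndufa1, an accessory subunit essential for assembly, had the highest level of complex I per kilobase of exon, 11.84 on the log2 scale. Its log2 level was 10.40 and 10.43 in WT and 10.69 and 10.81 in YBX1cKO, a rise of 0.34 (SE 0.05, limma adjusted p = 5.4e-06). Ndufa10 stood at 10.93 and 10.89 in WT and 11.26 and 11.17 in YBX1cKO, a rise of 0.31 (SE 0.04, limma adjusted p = 2.8e-06). Ndufb2 had the largest fitted rise, 0.57, but on low log2 levels of 5.87 and 5.72 in WT and 6.55 and 6.18 in YBX1cKO (SE 0.20, limma adjusted p = 0.030). Leaving out WT replicate 1 ended that call (adjusted p = 0.054), as did leaving out WT replicate 2 (0.15) or YBX1cKO replicate 1 (0.22) or dropping the filter (0.13), and Ndufb2 shares exon positions with Braf on the other strand, which rose by 0.46. The other accessory subunits that rose were Ndufc1, Ndufa7, Ndufa8, Ndufb5, Ndufa2, Ndufs5, Ndufa3 and Ndufs4, from 0.17 for Ndufc1 to 0.30 for Ndufs4. Of these, Ndufc1 was not called without WT replicate 2 (limma adjusted p = 0.25) or YBX1cKO replicate 1 (0.057), or with quantile normalization (0.082), where Ndufa7 and Ndufa8 were at 0.10 and 0.11. The 10 accessory subunits not called ran from -0.19 for Ndufc2 to 0.10 for Ndufa11, with Ndufs6, Ndufb11, Ndufb4, Ndufb3, Ndufa6, Ndufb6, Ndufb9 and Ndufv3 between them; the median shift called Ndufa11 and Ndufv3 higher (limma adjusted p = 0.024 and 0.017).

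Ndufs1, the largest core subunit of complex I and the carrier of several of its iron-sulphur clusters, fell. It lies on chromosome 1 from 63143596 to 63176833, and its log2 level was 10.77 and 10.75 in WT and 10.39 and 10.44 in YBX1cKO (limma log2 fold change -0.35, SE 0.05, adjusted p = 1.4e-06). The groups did not overlap. The remaining falls in the complex were smaller. Ndufa5 stood at 9.38 and 9.16 in WT and 9.05 and 9.003 in YBX1cKO (log2 fold change -0.24, limma adjusted p = 0.016, but 0.37 without WT replicate 1). Ndufb10 stood at 10.31 and 10.37 in WT and 10.11 and 10.21 in YBX1cKO (-0.18, limma adjusted p = 0.0095, but 0.12 without WT replicate 2 and 0.081 without YBX1cKO replicate 1). Ndufab1, the mitochondrial acyl carrier protein, stood at 10.81 and 10.72 in WT and 10.66 and 10.57 in YBX1cKO (-0.15, limma adjusted p = 0.016, but 0.21 without WT replicate 1 and 0.11 without YBX1cKO replicate 2). With the median shift Ndufa5, Ndufb10 and Ndufab1 were not called (limma adjusted p = 0.062, 0.086 and 0.17), nor with no filter on low values (0.17, 0.10 and 0.15). Ndufv2, Ndufa9 and Ndufa12 fell by 0.15, 0.14 and 0.12 in limma. Ndufv2 was not called without WT replicate 2 (adjusted p = 0.085), Ndufa9 without either WT replicate (0.064 and 0.087) or YBX1cKO replicate 2 (0.082), and Ndufa12 without WT replicate 1 (0.28) or YBX1cKO replicate 2 (0.34). With the median shift none of these 3 was called (limma adjusted p = 0.13, 0.19 and 0.37), and with quantile normalization their falls were 0.23, 0.20 and 0.21.

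The assembly factors of complex I split. Of 8 tested, 1 rose and 1 fell, and the median was -0.17. Ndufaf3, needed early in assembly, stood at 8.62 and 8.57 in WT and 8.99 and 9.09 in YBX1cKO, and rose by 0.45 (SE 0.08, limma adjusted p = 6.4e-05). Its partner Ndufaf4, which binds NDUFAF3 and lies on chromosome 4 from 24898083 to 24905001, went the other way. Its log2 level was 8.61 and 8.63 in WT and 8.13 and 8.08 in YBX1cKO, a log2 fold change of -0.51 (SE 0.09, limma adjusted p = 5.4e-05). Neither gene's groups overlapped. Ndufaf3 shares exon positions with Impdh2 on the other strand, which fell by 0.84, and no source used here says whether strand was used in counting. Ndufaf1, Ndufaf2, Ndufaf5, Ndufaf6, Ndufaf7 and Ndufaf8 were not called, with log2 fold changes from -0.34 for Ndufaf5 to 0.11 for Ndufaf8.

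Complex II, succinate dehydrogenase, is the only complex encoded wholly in the nucleus, and its 4 subunits hardly differed between genotypes. The flavoprotein Sdha stood at log2 levels of 12.29 and 12.25 in WT and 12.34 and 12.37 in YBX1cKO (limma log2 fold change 0.09, SE 0.03, adjusted p = 0.027). Leaving out WT replicate 2 (adjusted p = 0.22) or YBX1cKO replicate 2 (0.12) or dropping the filter (0.14) ended the call, and its sign turned with quantile normalization (-0.02). The iron-sulphur subunit Sdhb stood at 12.10 and 12.07 in WT and 11.98 and 12.02 in YBX1cKO, without overlap but not called (-0.08, limma adjusted p = 0.055; 0.042 with a minimum score of 5, 0.047 with a robust prior variance, 0.039 with the replicate block and 0.026 without YBX1cKO replicate 2). The membrane anchors were not called either. Sdhc stood at 9.44 and 9.45 in WT and 9.51 and 9.41 in YBX1cKO, with groups that overlapped. Sdhd, the highest of the complex per kilobase of exon at 10.90, stood at 11.24 and 11.22 in WT and 11.21 and 11.12 in YBX1cKO (limma adjusted p = 0.27). With quantile normalization 3 genes of the complex fell and 0 rose: Sdhb (-0.19, limma adjusted p = 2.9e-05), Sdhd (-0.16, adjusted p = 0.0031) and the assembly factor Sdhaf1.

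The clearest change of complex II was in an assembly factor. Sdhaf1, which helps to insert iron-sulphur clusters into SDHB, lies on chromosome 7 from 30321406 to 30323895. Its log2 level was 7.01 and 6.92 in WT and 6.14 and 5.94 in YBX1cKO, 1.90-fold lower (limma log2 fold change -0.92, SE 0.17, adjusted p = 1.2e-04). Both YBX1cKO libraries were far below both WT libraries, and the call held with any 1 library left out (largest adjusted p 0.0025). It shares exon positions with E130208F15Rik, which has no row in the table. Sdhaf2, which attaches the flavin to SDHA, stood at 10.24 and 10.15 in WT and 10.23 and 10.24 in YBX1cKO and was not called.

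In complex III, the cytochrome bc1 complex, 3 of 9 genes rose and 2 fell (median 0.04; 1 and 2 with quantile normalization, 5 and 0 with the median shift). These were 33.3% and 22.2% of its genes, against 19.5% and 17.8% of all tested genes. At a level of 9 or more 42.2% of all genes rose and 28.8% fell. Uqcrc1, a large core protein of the matrix side, lies on chromosome 9 from 108936633 to 108949623. It stood at 13.09 and 13.08 in WT and 13.39 and 13.40 in YBX1cKO, a rise of 0.31 (SE 0.02, limma adjusted p = 1.8e-10). The groups did not overlap, and with quantile normalization the rise was 0.13 (limma adjusted p = 3.1e-05). Its structural partner Uqcrc2 fell by 0.12 (limma adjusted p = 0.029), a call that ended without WT replicate 1 (0.14), WT replicate 2 (0.11) or YBX1cKO replicate 1 (0.11), or with the median shift (0.31). Uqcr11, with Uqcrq one of the small subunits that rose, was the highest of the complex per kilobase of exon at 11.84. Uqcr11 stood at 11.14 and 11.11 in WT and 11.26 and 11.28 in YBX1cKO (limma log2 fold change 0.15, SE 0.04, adjusted p = 0.0050, and 0.055 without WT replicate 2). With quantile normalization neither was called, at 0.05 for Uqcr11 (limma adjusted p = 0.34) and 0.02 for Uqcrq (0.71). Uqcrb stood at 9.62 in both WT libraries and 9.50 and 9.39 in YBX1cKO (-0.17, SE 0.06, limma adjusted p = 0.039), a call lost without either WT replicate (0.14 and 0.15) or YBX1cKO replicate 2 (0.23), with the median shift (0.21) or with no filter (0.13). The nuclear genes for redox-centre subunits, Cyc1 and Uqcrfs1, were not called on the deposited scale. Cyc1, cytochrome c1, stood at 11.83 and 11.87 in WT and 11.86 and 11.92 in YBX1cKO with overlapping groups (0.04, limma adjusted p = 0.36; -0.07 with quantile normalization; 0.11 and adjusted p = 0.015 with the median shift), and the Rieske protein gene Uqcrfs1 had a log2 fold change of 0.09 (limma adjusted p = 0.10, and 0.0049 with the median shift). Uqcr10 and Uqcrh, at -0.09 and -0.04, were not called, and their groups overlapped.

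Complex IV, cytochrome c oxidase, had 9 rises and 3 falls among 23 tested genes (median 0.03; 7 and 4 with quantile normalization, 10 and 2 with the median shift). The largest rises were in genes that have been linked to its assembly or to its joining to other complexes. Cox17, a copper chaperone, lies on chromosome 16 from 38346991 to 38352763. It stood at 9.20 and 9.26 in WT and at 9.79 in both YBX1cKO libraries, a rise of 0.56 (SE 0.06, limma adjusted p = 9.9e-08). Cox7a2l, also called SCAF1, which joins complexes III and IV into supercomplexes, stood at 10.03 and 10.02 in WT and 10.49 and 10.56 in YBX1cKO (limma log2 fold change 0.50, SE 0.05, adjusted p = 2.3e-08). Cox14, which binds newly made COX1, stood at 10.59 and 10.65 in WT and 11.04 and 11.17 in YBX1cKO (0.48, SE 0.05, limma adjusted p = 1.0e-08). In all 3 genes both YBX1cKO libraries lay above both WT libraries. Cox18, which inserts part of COX2 into the membrane, went the other way, from 8.73 and 8.70 in WT to 8.39 and 8.31 in YBX1cKO (-0.37, SE 0.09, limma adjusted p = 0.0012). Cox10, Cox15, Cox16, Cox19 and Cox20 were not called, though the median shift called Cox10 higher (limma adjusted p = 0.017).

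Of the 14 accessory subunits of complex IV tested, 6 rose and 2 fell (4 and 3 with quantile normalization). Ndufa4, once counted in complex I and now placed here, stood at 11.32 and 11.26 in WT and 11.59 and 11.56 in YBX1cKO (limma log2 fold change 0.29, SE 0.04, adjusted p = 1.3e-06). Cox7b stood at 10.45 and 10.43 in WT and 10.72 and 10.69 in YBX1cKO (0.26, SE 0.05, limma adjusted p = 5.7e-05), and Cox7c rose by 0.29 (limma adjusted p = 1.0e-05). With quantile normalization Ndufa4 was at 0.18 and Cox7c at 0.19. The groups of these 3 genes did not overlap. Cox8a, the highest member per kilobase of exon at 12.45, stood at 11.70 and 11.72 in WT and 11.75 and 11.86 in YBX1cKO. Its call (0.10, limma adjusted p = 0.048) was lost without either WT replicate (0.17 and 0.081) or YBX1cKO replicate 2 (0.46) and turned to -0.02 with quantile normalization; dropping the filter also ended it (0.28). Cox5a fell by 0.13 (limma adjusted p = 0.044), a call lost with any 1 library left out (0.054 to 0.23) or with the median shift (0.34). Cox5b and Cox6c, at -0.09 and -0.03, were not called, though quantile normalization called Cox5b lower (limma adjusted p = 0.029).

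Several subunits of complexes IV and V have paralogs used in particular tissues. Cox6a2, the heart and muscle form, was scarce in these cells and fell the most of all members. It lies on chromosome 7 from 128205435 to 128206387 and stood at log2 levels of 4.31 and 4.16 in WT and 2.87 and 2.997 in YBX1cKO, 2.47-fold lower (limma log2 fold change -1.31, SE 0.38, adjusted p = 0.0076, but 0.081 without WT replicate 1). Its widely expressed paralog Cox6a1 rose, from 10.58 and 10.46 in WT to 10.73 and 10.74 in YBX1cKO (0.22, SE 0.05, limma adjusted p = 9.6e-04). With no filter on low values neither was called (limma adjusted p = 0.076 for Cox6a2 and 0.062 for Cox6a1). Per kilobase of exon, Cox6a1 exceeded Cox6a2 by 6.22 and 6.25 on the log2 scale in WT and by 7.82 and 7.69 in YBX1cKO. Itgad, which shares exon positions with Cox6a2 on the other strand, was not called. Cox6a2 thus made up a very small part of the pair in both genotypes. Cox4i1, the common form, stood at 12.47 and 12.45 in WT and 12.57 and 12.61 in YBX1cKO (0.13, SE 0.03, limma adjusted p = 8.4e-04, but -0.01 with quantile normalization). Cox4i2, the form known from lung and low oxygen, was near the test's lower limit at 1.92 and 1.79 in WT and 0.32 and 1.23 in YBX1cKO (-1.08, SE 0.52, limma adjusted p = 0.11). Cox7a2 stood at 10.49 and 10.52 in WT and 10.58 and 10.47 in YBX1cKO, and muscle-type Cox7a1 at 4.16 and 3.45 in WT and 4.46 and 3.49 in YBX1cKO, both with overlapping groups and not called. Ndufa4l2 and the testis form Cox8c were too low for the test, as were the pseudogenes Cox6c2, Ndufa11b and Ndufs6b, while the pseudogene Ndufb4c was tested and not called. Cox6b1 stood at 11.45 and 11.37 in WT and at 11.42 in both YBX1cKO libraries and was not called.

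Complex V, the ATP synthase, had more falls than rises on the deposited scale. Of 17 genes 1 rose and 4 fell (median -0.03), with quantile normalization 1 and 7, and with the median shift 4 and 4. On the deposited scale 5.88% rose and 23.5% fell, against 19.5% and 17.8% of all tested genes. Among all genes at a level of 9 or more, 42.2% rose and 28.8% fell. All 4 falls were in the F1 head and the c ring. Among the 5 genes of the F1 head, which makes ATP, 2 fell and 0 rose. Atp5b, the catalytic beta subunit, lies on chromosome 10 from 128083273 to 128090391. It stood at 13.04 in both WT libraries and 12.72 and 12.70 in YBX1cKO (limma log2 fold change -0.33, SE 0.03, adjusted p = 2.6e-10). Atp5a1, the alpha subunit, stood at 12.51 and 12.49 in WT and 12.35 and 12.38 in YBX1cKO (-0.14, SE 0.03, limma adjusted p = 6.3e-04; -0.27 with quantile normalization and -0.07 with the median shift, where adjusted p = 0.0497). Both falls were far larger than the differences between replicates. Atp5c1, Atp5d and Atp5e, the other parts of the head, had log2 fold changes of -0.03, -0.11 and -0.13 and were not called, though quantile normalization called 4 of the 5 lower. Atp5a1 shares exon positions with Haus1 on the other strand, which fell by 0.58.

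The c ring, which turns as protons pass, is encoded by 3 genes whose mature proteins are identical and which differ in the import sequence. Atp5g2 stood at 8.27 and 8.15 in WT and 7.84 and 7.94 in YBX1cKO (limma log2 fold change -0.33, SE 0.10, adjusted p = 0.013, but 0.16 without WT replicate 1 and 0.064 with no filter on low values). Atp5g3 stood at 9.38 and 9.47 in WT and 9.12 and 9.20 in YBX1cKO (limma log2 fold change -0.27, SE 0.07, adjusted p = 0.0032, but 0.067 without WT replicate 2). The most abundant of them, Atp5g1, stood at 11.75 and 11.73 in WT and 11.75 and 11.80 in YBX1cKO and was not called (0.04, limma adjusted p = 0.44; -0.07 with quantile normalization; 0.10 and called with the median shift, adjusted p = 0.022). Per kilobase of exon, Atp5g1 exceeded Atp5g2 by 1.92 and 2.02 on the log2 scale in WT and by 2.36 and 2.31 in YBX1cKO. It exceeded Atp5g3 by 1.20 and 1.09 in WT and by 1.46 and 1.43 in YBX1cKO. The sizes of these differences depend on the length used. Annotated exons of Atp5g1, Atp5g2 and Atp5g3 span 4912, 1675 and 2181 bases, but their coding transcripts 596, 441 and 714 nucleotides. Reads shared by these similar genes could be split between them. The rise in the complex was that of Atp5l, subunit g of the membrane part, from 10.10 and 10.04 in WT to 10.45 and 10.35 in YBX1cKO (0.33, SE 0.05, limma adjusted p = 1.8e-05). Its neighbour in the dimer interface, Atp5k or subunit e, stood at 8.98 and 8.89 in WT and 8.76 and 8.88 in YBX1cKO and was not called. Of the other membrane genes, Atp5mpl, Atp5md and Atp5j2 were at -0.03, 0.02 and 0.08 and were not called. None of the 4 peripheral stalk genes was called by limma on the deposited scale, but quantile normalization called Atp5o lower (-0.12, adjusted p = 0.0083) and the median shift called Atp5h and Atp5pb higher (0.14 and 0.13, adjusted p = 0.016 and 0.0046). Atp5o, the highest of complex V per kilobase of exon at 10.97, stood at 11.99 and 11.92 in WT and 11.92 and 11.97 in YBX1cKO, and Atp5j, Atp5pb and Atp5h had log2 fold changes between 0.004 and 0.08.

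**Figure D3:**
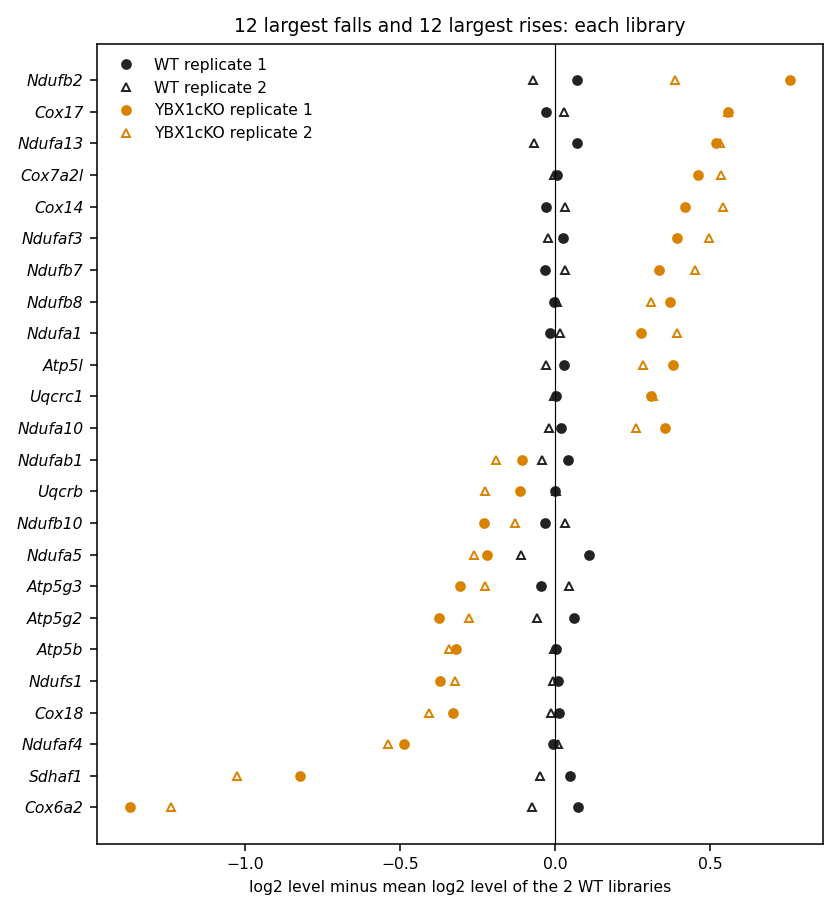
Log2 level of each library minus the mean of the 2 WT libraries, for the 12 members with the largest called falls and the 12 with the largest called rises; filled and open marks tell the replicates apart. Groups that do not overlap were a condition for a gene to be shown; the largest separation is that of Cox6a2.

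Across complexes, both subunits and assembly factors went both ways. Of 80 tested subunits 28 rose and 15 fell, and of 19 assembly factors 4 rose and 3 fell. These were 35.0% and 18.8% of the subunits and 21.1% and 15.8% of the assembly factors. Over all tested genes 19.5% rose and 17.8% fell. The assembly factors moved by larger amounts, with a median absolute log2 fold change of 0.27 against 0.13 for subunits, but their median log2 level was lower, 8.53 against 10.5. This difference between the 2 kinds of gene was not tested.

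The summed level of all members was 1.05 times as high in YBX1cKO as in WT on the deposited scale, but as a share of the library sum it was 0.963 times as high, so its direction depended on the scaling. Members took 1.45% and 1.44% of the library sum in WT and 1.39% in both YBX1cKO libraries. The library sum itself was 1.09 times as high in YBX1cKO. The same reversal held for complex I, at 1.08 on the deposited scale and 0.987 as a share. Complexes III and IV were higher on both scales, at 1.11 and 1.02 for complex III and 1.12 and 1.02 for complex IV. Complex V was lower on both, at 0.949 and 0.870, and its F1 head at 0.874 and 0.801. The most abundant genes weigh most in these sums, which are not shifts shared by all genes of a complex. Of 17 genes of complex V, 12 were not called. Atp5b, which had the highest log2 level of complex V before division by length, fell by 0.33. Uqcrc1, with the highest such level of complex III, rose by 0.31. For complex II the groups overlapped on the deposited scale (0.997), and the share was 0.915. Transcripts of the subunits encoded by mitochondrial DNA, in contrast, came to 1.41 times the WT level, or 1.29 times as a share. Of these 13 genes 11 were tested, 9 rose and 0 fell (8 and 0 with quantile normalization). The most abundant, mt-Cytb and mt-Co1, had WT means of 13.63 and 13.19 and rose by 0.43 and 0.61. With quantile normalization these rises were 0.15 and 0.35. In contrast, mt-Co2, mt-Co3, mt-Atp6 and mt-Atp8 had low WT means, from 2.27 to 4.70, and mt-Co3 and mt-Atp8 were not called. The WT replicates of mt-Co2 stood at 4.05 and 2.71, and those of mt-Atp6 at 5.34 and 4.06. With single libraries left out their rises ran from 0.41 to 1.75 and from 0.47 to 1.75. Quantile normalization ended the call of mt-Co2 (limma adjusted p = 0.056). Levels of mt-Nd3 and mt-Nd4l were too low for the test.

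**Figure D4:**
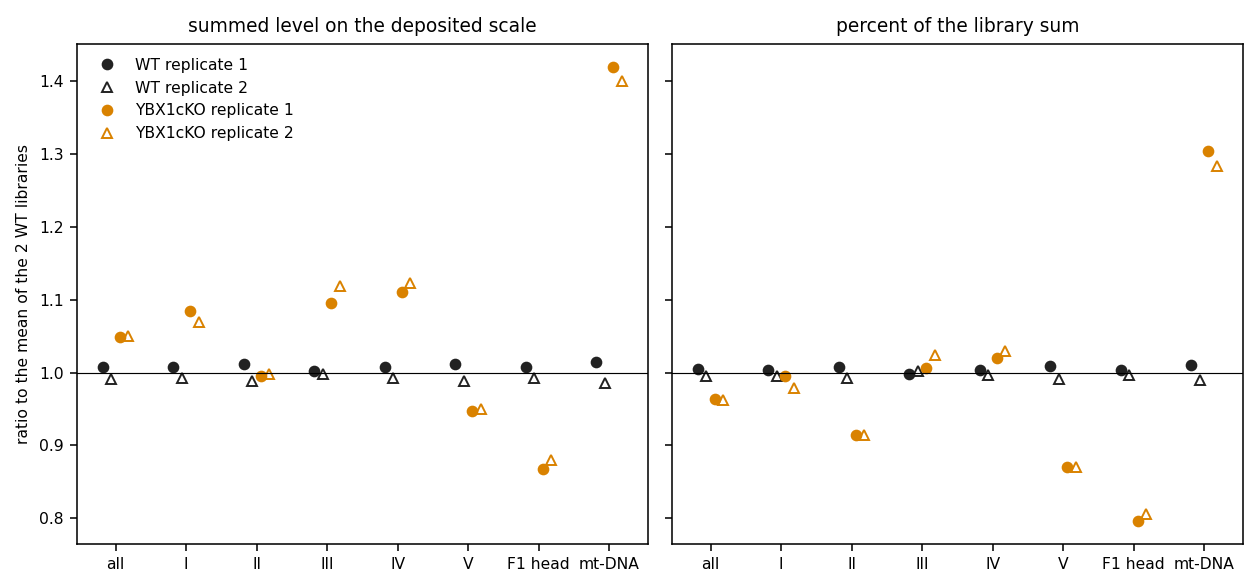
Summed back-transformed level of the members, of each complex, of the F1 head of complex V and of the subunits encoded by mitochondrial DNA (mt-DNA), per library, divided by the mean of the 2 WT libraries; one panel uses the deposited scale and the other the share of the library sum. Complex V lies below 1 in both panels and the mt-DNA subunits above 1 in both, while all members together change side. The most abundant genes weigh most in each sum.

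The members share features that the rule did not use. They are short genes: the median coding length of the 99 members with a coding transcript was 432 nucleotides, against 1404 for the 12097 tested genes with one, and the median number of exons was 4 against 9. Median GC content was 51.0% and 50.6%. Their median log2 level was 10.2, against 7.72. Across the members, log2 fold change went with the log2 level (Spearman's rho 0.33, n = 99; 0.12 with quantile normalization) with the GC content of the transcript (0.25) and against the coding length (-0.21; -0.28 with quantile normalization), as a description of genes measured in the same 4 libraries. Over all tested genes with a coding transcript these values were 0.12, 0.02 and -0.08 (-0.06 with quantile normalization). In GENCODE M21, 40 of the 105 members share exon positions with another gene.

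Promoters of respiratory genes are known to hold sites of the transcription factors NRF1, GABPA and YY1. RefSeq windows of GRCm38.p6, from 250 bases before to 50 after the gene start, were available for 81 members and for 27025 genes in all, and were searched on both strands. The NRF1 motif, GCGC and any base followed by TGCGC, was present in 19 members (23.5%, against 5.19% of all genes), the GABPA motif CCGGAAG in 26 (32.1%, against 9.93%) and the YY1 motif AAGATGGC in 13 (16.05%, against 3.19%). At least 1 of these was found in 49 members, 60.5%, against 16.4% of all genes. All 81 members with a window were tested, whereas the 27025 genes include genes not tested here. A comparison set matched for level was not searched. The E-box CACGTG, bound by MYC among others, was in 6 members (7.41%, against 8.09%). None of the 4 motifs contains another. Of the members with the NRF1 motif 5 rose and 4 fell (median log2 fold change -0.03), and of those without it 22 rose and 8 fell (0.04). With the GABPA motif 7 rose and 1 fell (median 0.03), and without it 20 rose and 11 fell (0.02). With the YY1 motif 5 rose and 1 fell (median 0.11), and without it 22 rose and 11 fell (0.01).

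Windows of 4 named members show how matches were spread among genes that moved in different directions; they were chosen after their values were seen. Each is the 250 bases before the RefSeq start, on the gene's strand, with motif matches in capitals. Ndufaf4, which fell, has 1 NRF1 match from 113 to 104 bases before the start (chr4:24897833-24898082, plus strand).
Ndufaf4: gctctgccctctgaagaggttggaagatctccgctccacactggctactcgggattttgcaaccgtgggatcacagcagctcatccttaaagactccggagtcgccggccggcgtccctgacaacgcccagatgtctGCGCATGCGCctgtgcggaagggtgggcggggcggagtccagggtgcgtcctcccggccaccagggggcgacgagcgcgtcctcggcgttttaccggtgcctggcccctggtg
Cox6a1, which rose, has NRF1 matches from 162 to 153 and from 117 to 108 bases and a GABPA match from 16 to 10 bases before the start (chr5:115348959-115349208, minus strand).
Cox6a1: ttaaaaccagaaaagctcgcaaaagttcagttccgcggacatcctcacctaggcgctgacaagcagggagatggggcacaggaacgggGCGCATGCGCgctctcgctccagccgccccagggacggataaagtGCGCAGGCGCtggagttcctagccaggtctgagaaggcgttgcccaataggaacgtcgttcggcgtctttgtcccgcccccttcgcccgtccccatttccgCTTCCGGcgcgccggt
Atp5l, the member of complex V that rose, has a GABPA match from 212 to 206 and an E-box from 147 to 142 bases before the start (chr9:44920743-44920992, minus strand).
Atp5l: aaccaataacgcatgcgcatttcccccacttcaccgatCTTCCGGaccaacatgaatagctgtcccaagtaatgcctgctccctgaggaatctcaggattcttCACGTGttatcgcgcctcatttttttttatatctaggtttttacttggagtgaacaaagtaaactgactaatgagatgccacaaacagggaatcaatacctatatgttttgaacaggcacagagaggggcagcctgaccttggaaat
Cox7a2l, among the largest rises, has none of the 4 motifs in this window (chr17:83514334-83514583, minus strand). GENCODE M21 places this gene from 83501918 to 83517330, so the window lies inside it and not before its start there. Bases before the GENCODE start of Cox7a2l were not searched.
Cox7a2l: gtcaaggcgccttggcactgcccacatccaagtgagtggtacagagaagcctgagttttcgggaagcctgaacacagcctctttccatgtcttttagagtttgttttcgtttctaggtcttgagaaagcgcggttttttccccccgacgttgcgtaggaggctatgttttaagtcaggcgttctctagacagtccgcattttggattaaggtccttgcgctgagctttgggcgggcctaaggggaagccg
A match describes these letters only and is not a measured binding site.

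Among genes that regulate the nuclear respiratory genes and mitochondrial DNA, Pprc1, Lrpprc and Gabpb1 fell and Esrra rose, while Nrf1, Gabpa and Tfam were not called. Of 19 tested 3 rose and 5 fell (median log2 fold change -0.10). Pprc1, a coactivator of the PGC-1 family, stood at 10.29 and 10.25 in WT and 9.60 and 9.70 in YBX1cKO (-0.62, SE 0.06, limma adjusted p = 3.3e-09). Lrpprc, which stabilises mitochondrial messenger RNAs, stood at 8.79 and 8.99 in WT and 8.38 and 8.25 in YBX1cKO (-0.58, SE 0.09, limma adjusted p = 1.2e-05), and Gabpb1, the partner of GABPA, fell by 0.31. Esrra, an orphan nuclear receptor that works with PGC-1 proteins, rose from 6.98 and 7.11 in WT to 7.75 and 7.57 in YBX1cKO (0.62, SE 0.13, limma adjusted p = 5.0e-04). In these 4 genes the groups did not overlap. The log2 fold changes of Nrf1, Gabpa, Tfam and Ppargc1b were -0.03, 0.02, -0.12 and -0.25, and none was called (limma adjusted p = 0.74, 0.93, 0.36 and 0.19). Ppargc1a, which encodes PGC-1alpha, was too low for the test, at -0.14 and 0.67 in WT and 0.03 and -0.43 in YBX1cKO.

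Electron carriers and the enzymes of coenzyme Q synthesis went both ways, with 4 rises and 5 falls among 19 tested (median -0.04). Cycs, which encodes cytochrome c, stood at 12.12 and 12.07 in WT and 11.97 and 12.01 in YBX1cKO (limma log2 fold change -0.11, SE 0.03, adjusted p = 0.014), a call lost without WT replicate 1 (0.18) or YBX1cKO replicate 1 (0.068), or with the median shift (0.33); with quantile normalization the value was -0.23. Dhodh, the pyrimidine synthesis enzyme that feeds electrons to coenzyme Q, fell by 0.36 (SE 0.07, limma adjusted p = 3.8e-04). Coq10b rose by 0.47 and Coq5, a methyltransferase of coenzyme Q synthesis, by 0.24 (limma adjusted p = 9.0e-04 and 0.0012). Of the other coenzyme Q genes, Coq8a rose by 0.19, while Pdss1, Coq3 and Coq4 fell by 0.61, 0.36 and 0.42. With quantile normalization Coq3 and Coq4 were not called (limma adjusted p = 0.11 and 0.085). Among assembly factors whose symbols the rule does not cover, 9 of 31 rose and 4 fell (median 0.04). Those with the smallest p-values were Coa3 and Surf1 of complex IV and Tmem126b of complex I, which rose by 0.32, 0.61 and 0.48. Coa3 is a partner of COX14, which also rose.

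Carriers that move ATP, phosphate and ions gave 3 rises and 3 falls among 10 tested (2 and 5 with quantile normalization). Vdac1, a pore of the outer membrane, stood at 10.28 and 10.30 in WT and 9.66 and 9.59 in YBX1cKO (limma log2 fold change -0.67, SE 0.06, adjusted p = 6.4e-10). Its paralogs Vdac2 and Vdac3 were more abundant, with WT means of 11.64 and 12.53. Vdac2 rose by 0.10 (limma adjusted p = 0.041) and Vdac3 was not called (-0.01). With quantile normalization Vdac2 was not called (0.001) and Vdac3 was called lower (-0.14). The ADP/ATP carriers went apart, with Slc25a5 falling by 0.20 and Slc25a4 rising by 0.27 (limma adjusted p = 1.5e-08 and 3.2e-07); with quantile normalization these were -0.52 and 0.16. Of 12 genes that shape the cristae, the folds that hold the respiratory chain, 4 rose and 6 fell (median -0.21). Apoo, a subunit of the MICOS complex, stood at 8.90 and 8.68 in WT and 7.32 and 7.86 in YBX1cKO (log2 fold change -1.201, SE 0.13, limma adjusted p = 3.5e-08), and the prohibitin gene Phb fell by 0.38. Among the other genes of this list, Apool, Immt and Micos13 rose by 0.49, 0.32 and 0.16. Falls were seen for Chchd6, Phb2, Chchd3 and Micos10, by 0.65, 0.24, 0.22 and 0.20. The inner membrane protease gene Yme1l1 rose by 0.38 (SE 0.03, limma adjusted p = 7.7e-10).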

How the data were processed

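The authors deposited 1 logarithmic score per gene and library, from -3.19 to 27.9, for 2 WT and 2 YBX1cKO libraries of polyadenylated RNA; 0 columns were left out. The submitters' processing notes name GRCm38 and the tools featureCounts, DESeq2, HISAT2 2.1.0 and CASAVA, in no stated role. No source used here gives the base of the deposited scores. If they are log2 levels divided by ln(2), the SD between replicates was 1.10 (WT) and 1.31 (YBX1cKO) times Poisson noise; if plain log2, 4.85 and 5.94 times. The slope of the noise gave 1.62 and 1.59 units per doubling. Scores were therefore multiplied by 0.693.

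The test had been planned for counts; because the unit was a log score, limma 3.58.1 (R 4.3.3; lmFit, eBayes with a trend) was fitted without covariates to the 15527 genes that reached a score of 1 in 2 or more libraries, two-sided, with Benjamini-Hochberg adjustment. Python 3.11.15 and pandas 2.3.3 made the tables, and matplotlib 3.10.9 the plots. Summed levels were back-transformed. Gene positions and exons come from GENCODE M21 on GRCm38, which held 102 members by symbol; 3 were matched through RefSeq. Members, gene lists and tests were chosen with earlier results of these data known. Named members were the 12 largest called rises and falls without overlap, the highest per kilobase of each complex, listed paralogs, Sdha to Sdhd and Cyc1; per related list, up to 3 called genes with the smallest p and 7 further genes (Ppargc1a, Ppargc1b, Nrf1, Gabpa, Esrra, Tfam, Cycs), and up to 2 per marker list. Others named were chosen after their values were seen. Values of 1 member are not reported here, though counts include it. Erythroid markers (3 of 4 tested fell, by smallest p Tfrc and Hemgn), T and NK markers (3 of 3 fell, by smallest p Gzmb and Ccl5), the 1 B cell marker (Cd79b, higher by 0.26 on the log2 scale) and megakaryocyte markers (2 of 5 rose, by smallest p Ppbp, and 2 fell, by smallest p Itgb3) were also read. Alternatives covered the filter, normalization, scale, prior variance, threshold, replicate block and each library left out.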

Additional observations from a re-analysis of the deposited data

How the results depend on the processing

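The counts for all genes, for members that rose and for members that fell were 5803, 32 and 18. Members that fell numbered 7 with no filter on low values, 9 with the median shift and 10 at an adjusted p under 0.01. In these settings 14%, 38.5% and 29% of all tested genes were called, against 37.4% in the main fit. Without the mean-variance trend, 2267 genes were called, of which 3 members rose and 3 fell. With single libraries left out, 4662 to 5803 genes were called, 26 to 31 members rose and 9 to 16 fell. A minimum score of 5, the robust prior, quantile normalization and the plain log2 reading kept each count within 1.5 times. The fit with the replicate number as a block called 6026 genes, with 32 members up and 19 down, and lost no call; deviations of same-numbered libraries correlated at 0.013, so the numbers were not taken to pair them. Quantile normalization turned the log2 fold changes of Atp5g1 (-0.0737), Cox4i1 (-0.00865), Cox6b1 (-0.0925), Cox7a2 (-0.0342), Cox8a (-0.0158), Cyc1 (-0.0737) and Sdha (-0.0236), and the median shift those of Atp5o (0.0516) and Sdhd (2.1e-06). With single libraries left out the value ran from -0.0469 to 0.0253 for Atp5o, from -0.0333 to 0.0450 for Cox6b1, from -0.315 to 0.652 for Cox7a1, from -0.0385 to 0.0775 for Cox7a2 and from -0.0340 to 0.0694 for Sdhc, none of them called. The cause of these shifts was not tested. As the table holds no counts, the depth behind low genes such as Cox6a2 and Cox4i2 is unknown.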
